A study of Mus musculus with 4 samples.

Results

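Low-fold peaks of Deaf1 chromatin immunoprecipitation sequencing (ChIP-seq) in C2C12 cells were described here, that is, stretches called with a small p-value although the signal stood less than 5 times over its local background. A peak was taken when the fold enrichment in the authors' peak list was below 5 and its −log10 p was 10 or more, on any sequence. The rule took 317 of 65606 peaks in replicate 1 and 105 of 26503 peaks in replicate 2, or 422 of 92109 peaks in both lists, and 0.483% and 0.396% of all peaks of the 2 lists were called low-fold by it. C2C12 is a mouse myoblast line that fuses into myotubes in culture. The series held 4 samples, 2 of Deaf1 ChIP (antibody to Deaf1) and 2 of input chromatin, all from C2C12 myocytes per the labels, whereas the series text speaks of myoblasts that had been differentiated. All cells were crosslinked with 1% formaldehyde and their chromatin was cut with an enzymatic kit, and a control IgG is also named in the protocol. No genotype, treatment or time is given. The labels number the replicates without saying that they were separate cultures, so differences between the lists may be technical. The inputs entered no comparison because only the Deaf1 peak lists were used, and read depth is not given in these lists. A peak list holds no expression values, so the labelled cell type could not be checked against marker genes.

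Deaf1 is a transcription factor that binds DNA through a SAND domain and prefers sequences with TTCG, and it can repress or activate genes. A ChIP-seq peak caller counts the DNA fragments that cover each position (the pileup) and sets them against a background expected there, which is taken from the wider surroundings or from a control library. Where that background is raised, many fragments are needed for a given fold, and a site can then have a small p-value at a modest fold. The fold and the p of the caller together fix both counts at the summit, the highest position of a peak, so both could be read back for each peak.

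Low-fold summits of both replicates fell in 10 annotated promoters of 9 genes (250 bases before to 50 after a RefSeq transcription start, GRCm38.p6, the assembly of mm10). The promoters below show 5 of these genes, chosen after their values were seen to cover the range of 0 to 6 matches of the Deaf1 core motif. Sequences run 5′ to 3′ on the gene's strand, and capitals mark TTCG on either strand, so TTCG or CGAA.
Fam102a: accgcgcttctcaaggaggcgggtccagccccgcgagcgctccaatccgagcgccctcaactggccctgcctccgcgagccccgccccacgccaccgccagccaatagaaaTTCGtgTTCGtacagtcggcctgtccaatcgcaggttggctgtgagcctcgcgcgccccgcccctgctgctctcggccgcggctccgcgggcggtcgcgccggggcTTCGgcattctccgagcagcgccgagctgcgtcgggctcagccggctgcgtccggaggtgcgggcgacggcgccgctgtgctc
Gna11: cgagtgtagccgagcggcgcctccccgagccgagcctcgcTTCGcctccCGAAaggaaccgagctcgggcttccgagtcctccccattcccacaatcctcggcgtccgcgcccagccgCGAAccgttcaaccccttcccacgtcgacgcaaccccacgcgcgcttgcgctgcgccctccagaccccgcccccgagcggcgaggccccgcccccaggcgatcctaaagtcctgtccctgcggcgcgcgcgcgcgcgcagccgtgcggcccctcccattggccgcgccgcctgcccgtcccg
Commd3: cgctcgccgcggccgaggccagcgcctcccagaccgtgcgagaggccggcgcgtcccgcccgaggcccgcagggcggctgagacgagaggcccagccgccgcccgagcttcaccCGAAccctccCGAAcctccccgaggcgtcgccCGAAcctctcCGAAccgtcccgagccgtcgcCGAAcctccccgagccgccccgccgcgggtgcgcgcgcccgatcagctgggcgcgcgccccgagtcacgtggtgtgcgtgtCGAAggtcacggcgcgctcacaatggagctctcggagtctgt
Eif2b1: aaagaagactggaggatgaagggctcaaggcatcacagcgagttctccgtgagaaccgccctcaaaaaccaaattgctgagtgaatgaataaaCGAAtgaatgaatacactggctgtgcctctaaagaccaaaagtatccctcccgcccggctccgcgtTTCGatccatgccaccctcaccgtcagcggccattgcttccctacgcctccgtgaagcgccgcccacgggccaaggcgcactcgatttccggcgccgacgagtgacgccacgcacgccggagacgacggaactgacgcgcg
Ptbp2: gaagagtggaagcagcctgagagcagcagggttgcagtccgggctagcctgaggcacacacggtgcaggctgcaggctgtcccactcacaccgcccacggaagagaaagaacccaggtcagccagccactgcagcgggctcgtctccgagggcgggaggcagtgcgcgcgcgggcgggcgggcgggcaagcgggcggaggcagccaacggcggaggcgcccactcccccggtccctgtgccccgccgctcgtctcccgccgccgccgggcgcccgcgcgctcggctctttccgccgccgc

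The Fam102a promoter lay at chr2:32535109-32535408 on the plus strand and held 3 matches. The promoter of Gna11, a G protein alpha subunit, lay at chr10:81545113-81545412 on the minus strand and held 3 matches. The Commd3 promoter lay at chr2:18672185-18672484 on the plus strand and held 6. The promoter of Eif2b1, a subunit of the translation initiation factor exchange complex eIF2B, lay at chr5:124579082-124579381 on the minus strand with 2 matches, and it overlapped the promoter of the divergent gene Gtf2h3, a subunit of the transcription factor TFIIH. The promoter of Ptbp2, a polypyrimidine tract binding splicing regulator, lay at chr3:119783339-119783638 on the minus strand and held none. Of the 10 promoters with low-fold summits of both lists, 6 (60.0%, exact 95% interval 26.2 to 87.8) held a match. They are not all separate, since Egr2 entered with nearly identical promoters without a match, and those of Eif2b1 and Gtf2h3 overlap. The interval treats them as separate. Of the promoters with a low-fold summit, 44 of 66 (66.7%) in replicate 1 and 29 of 43 (67.4%) in replicate 2 held a match, against 58.8% and 60.1% of promoters with only other summits in replicates 1 and 2. Over all 21045 promoters the share was 49.4%. The intervals of the low-fold promoters, 54.0 to 77.8 and 51.5 to 80.9, included the shares of promoters with other summits. The median GC content was 60.7% and 64.7% at low-fold summits of replicates 1 and 2, against 66.7% and 68.3% at other summits and 56.7% over all promoters. All intervals here are exact Clopper-Pearson intervals at the 95% level that cover counting error only. Peaks of 1 library are not replicates of each other, so no test was made between sets of peaks.

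Low-fold peaks held many fragments over a raised background. Their median pileup was 25 fragments (20 to 103) in replicate 1 and 28 (19 to 96) in replicate 2, against 19 and 23 fragments for the other peaks of those lists. Their median background was 4.67 fragments (3.27 to 43.4) in replicate 1 and 5.42 (3.0 to 43.3) in replicate 2, against 2.13 and 1.64 for the other peaks, which is the lowest background of each list. The median fold was 4.76 (2.32 to 4.99) and 4.54 (2.19 to 5.0), and the median −log10 p was 11.4 and 11.8 with a highest value of 31.5 and 31.3. The peaks were chosen by this fold and p, and pileup and background follow from them, so these values describe the rule and support nothing. At the lowest background a −log10 p of 10 needs 17 fragments and a fold of 5.75 in replicate 1, and 15 fragments and a fold of 6.07 in replicate 2. All 317 and all 105 low-fold peaks therefore stood on a background above that level, as did 21.4% and 25.0% of all peaks. The peak width, which the rule did not use, had a median of 273 bp for low-fold peaks and 257 bp for other peaks in replicate 1, and of 238 bp and 293 bp in replicate 2.

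Most peaks with at least their lowest background were not low-fold. In replicate 1, 5003 peaks had at least the lowest background of a low-fold peak, and 317 of them (6.34%) were low-fold, 3346 had a fold of 5 or more and 1340 had a fold below 5 with a −log10 p below 10. In replicate 2 the corresponding peaks numbered 1534, with 105 low-fold (6.84%), 1213 of higher fold and 216 of weaker p. The other peaks among them, 4686 and 1429, are called other peaks of like background below. They share only this lower limit and were not matched to the low-fold peaks. At backgrounds of 8 to 16 and 16 or more, replicate 1 held 133 and 14 of them, against 38 and 38 low-fold peaks. Replicate 2 held 40 and 8, against 18 and 22. Comparisons with them below therefore also hold differences in background. The most frequent low-fold peak of replicate 1 was 20 fragments over a background of 3.34, which gives a fold of 4.84 and a −log10 p of 10.1, and 75 peaks (23.7%) had exactly these counts. In replicate 2 the most frequent was 20 fragments over 3.25, a fold of 4.94 and a −log10 p of 10.3, with 16 peaks (15.2%). Many low-fold peaks thus lay close to both limits. The nearest peaks just inside the fold limit had folds of 4.993 in replicate 1 and 4.997 in replicate 2, and those just outside had 5.009 and 5.002. Just inside the p limit stood −log10 p values of 10.01 and 10.021, and just outside it 9.969 and 9.888.

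**Figure D1:**
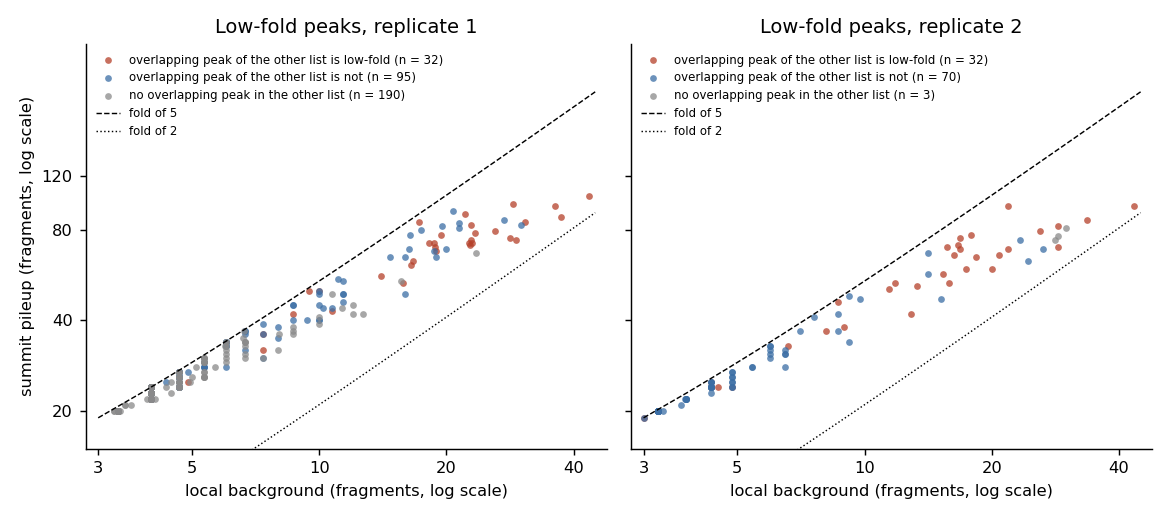
Summit pileup against local background (fragments, both log scales) for each low-fold peak, by replicate, coloured by its overlapping peak in the other list; the lines mark folds of 5 and 2. The peaks lie just under the line for a fold of 5 at low background and spread below it toward the highest backgrounds of 43.4 and 43.3 fragments.

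A minority of low-fold peaks had very high backgrounds and pileups. For description, the peaks were divided at backgrounds of 3.5, 8 and 16 fragments, limits chosen after the values were seen. Replicate 1 held 80, 161, 38 and 38 low-fold peaks from the lowest to the highest range, and replicate 2 held 19, 46, 18 and 22. In the highest range the pileup was 49 to 103 fragments with a median of 76 in replicate 1 and 59 to 96 with a median of 72.5 in replicate 2. Only 4.15% and 6.79% of all peaks of the lists reached those medians, and the tallest summits of the lists had 116 and 121 fragments.

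The place of low-fold peaks differed between the lists. In replicate 1, 130 of 317 (41.0%, interval 35.5 to 46.6) had their summit within 1 kb of either end of a coding gene, against 25.8% of all peaks. A further 119 (37.5%) lay deeper inside a coding gene, 11 (3.47%) near the end of a noncoding gene, 53 (16.7%) elsewhere and 4 (1.26%) on unplaced sequence. In replicate 2, 80 of 105 (76.2%, 66.9 to 84.0) lay at a coding gene end, against 46.7% of all peaks, with 14 (13.3%) deeper inside a gene, 2 (1.9%) near a noncoding end, 7 (6.67%) elsewhere and 2 (1.9%) on unplaced or mitochondrial sequence. Low-fold peaks were thus at gene ends more often than the whole list in each replicate, with intervals that did not include the share of the list. The comparison with other peaks of like background differed between the lists. In replicate 1 the share at gene ends was 41.0% for low-fold peaks and 54.5% (53.1 to 56.0) for those peaks, so it was lower for low-fold peaks, and in replicate 2 it was 76.2% and 75.7%, within the interval of the low-fold peaks.

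Among low-fold peaks of replicate 1, the share at gene ends was higher where the background was higher. It was 15%, 38.5%, 71.1% and 76.3% of low-fold peaks from the lowest to the highest background range, against 43.6%, 63.6%, 83.5% and 71.4% of other peaks in the same ranges, the last of only 14 peaks. In replicate 2 it was 63.2%, 76.1%, 83.3% and 81.8% of low-fold peaks, against 71.6%, 78.9%, 82.5% and 12.5% of other peaks, the last of only 8 peaks. The other peaks were not alike across the ranges. Their median fold was 6.83, 8.99, 6.18 and 2.15 in replicate 1 and 11.1, 9.77, 6.27 and 2.19 in replicate 2. The intervals of the low-fold shares of replicate 2 overlapped over all 4 ranges. The low-fold peaks of replicate 1 with a background below 3.5, 80 in number, were thus mostly away from gene ends, and those of 16 or more were mostly at them.

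**Figure D2:**
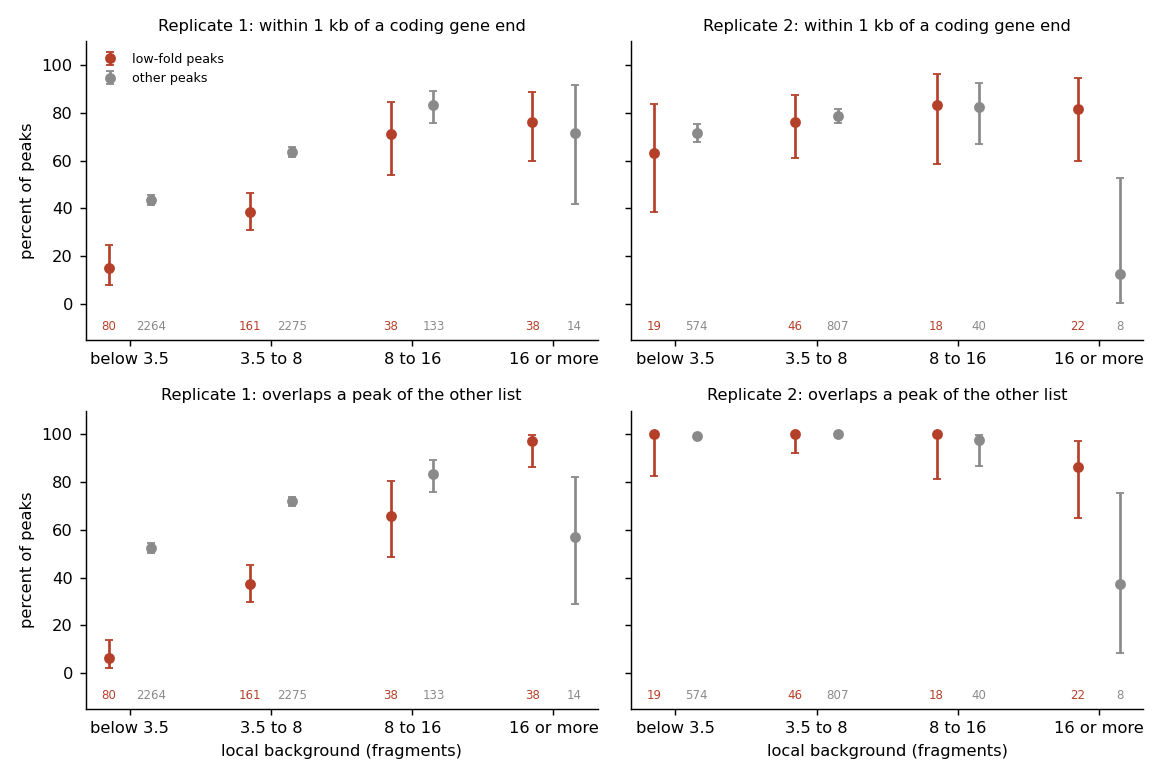
Share (percent) of low-fold peaks and of other peaks at a coding gene end and with an overlapping peak in the other list, by range of local background (fragments), with exact 95% intervals and the number of peaks under each point. In replicate 1 both shares of low-fold peaks are higher at higher background, from 15% to 76.3% at gene ends.

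Low-fold peaks were also near transcription starts more often than the whole list. With starts in place of gene ends, 37.9% of low-fold peaks in replicate 1 and 67.6% in replicate 2 had a summit within 1 kb of one, against 19.5% and 39.9% of all peaks, although only 79.9% of coding genes had a start in the table used. Within 1 kb, the median low-fold summit lay 43 bp downstream of the start in replicate 1 (120 peaks) and 8 bp downstream in replicate 2 (71 peaks), against 106 and 104 bp for other peaks. Downstream of the start lay 58.3% and 50.7% of these low-fold summits, against 71.2% and 71.1% of the other summits. Low-fold summits were therefore spread more evenly over both sides of the start than the other summits. Neither measure was computed for other peaks of like background. At gene ends, those peaks had shares of 54.5% and 75.7% in replicates 1 and 2, against 41.0% and 76.2% of low-fold peaks. The excess near starts is thus not shown to be particular to low-fold peaks.

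**Figure D3:**
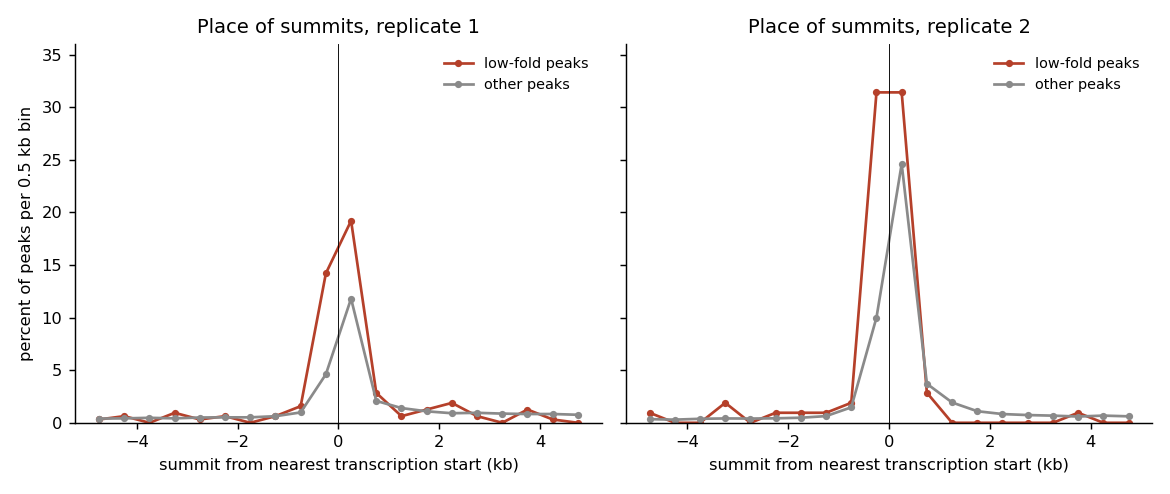
Percent of peaks per 0.5 kb by distance of the summit from the nearest annotated coding transcription start (kb, downstream positive), low-fold peaks and other peaks, by replicate. The 0.5 kb just upstream held 14.2% and 31.4% of low-fold peaks in replicates 1 and 2, against 4.61% and 10% of other peaks.

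Few low-fold peaks were low-fold in both replicates, and most of replicate 1 had no overlapping peak in replicate 2. Of the 317 low-fold peaks of replicate 1, 127 (40.1%, interval 34.6 to 45.7) overlapped a peak of the other list by at least 1 bp, against 35.0% of all peaks and 62.8% of other peaks of like background. Of the 105 of replicate 2, 102 (97.1%, 91.9 to 99.4) did, against 93.9% of all peaks and 99.4% of other peaks of like background. The overlapping peak, taken as the one with the smallest p where several overlapped, was itself low-fold for 32 peaks in each list. For 57 peaks of replicate 1 and 66 of replicate 2 it had a fold of 5 or more, for 38 and 4 its fold was below 5 with a −log10 p below 10, and 190 and 3 low-fold peaks had no overlapping peak. Counting any overlap, 33 low-fold peaks of replicate 1 (10.4%) and 32 of replicate 2 (30.5%) met a low-fold peak of the other list. Of the other peaks, 0.107% in replicate 1 and 0.383% in replicate 2 met one. These shares are of other peaks at any background, so they also hold differences in background.

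The rule did not use the background of the overlapping peak unless that peak was itself low-fold, as it was for 32 peaks in each list. For those 32 a raised background was fixed by the rule. They are included here, so the shares of low-fold peaks are partly set by the rule, and shares without them were not computed. The background of the overlapping peak was above the lowest level of its list for 98 of 127 low-fold peaks of replicate 1 (77.2%, 68.9 to 84.1). In replicate 2 this held for 92 of 102 (90.2%, 82.7 to 95.2). Over all peaks with an overlap the shares were 25.3% and 30.0%, and over other peaks of like background 67.3% and 81.2%. The overlapping peaks of replicate 1 low-fold peaks had a median background of 3.25 fragments beside their own 7.35, and those of replicate 2 low-fold peaks 5.34 beside their own 5.14.

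The counts of low-fold peaks that met one of the other list are given by background as a description, since the background follows from the fold and p of the rule. In replicate 1, 0 of 80 (interval up to 4.51%), 3 of 161, 6 of 38 and 24 of 38 low-fold peaks met a low-fold peak of the other list, from the lowest to the highest background range, against 9 of 2264, 29 of 2275, 6 of 133 and 4 of 14 other peaks. In replicate 2 the counts were 1 of 19, 5 of 46, 10 of 18 and 16 of 22 low-fold peaks, against 6 of 574, 19 of 807, 13 of 40 and 1 of 8 other peaks. Low-fold peaks of replicate 1 without any overlap had a median background of 4.01 fragments and a median pileup of 23. Of the 75 peaks with 20 fragments over 3.34 in replicate 1, only 5 had an overlapping peak and 10 lay at a coding gene end. All 16 of the most frequent kind in replicate 2 had one, and 10 lay at a gene end.

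**Figure D4:**
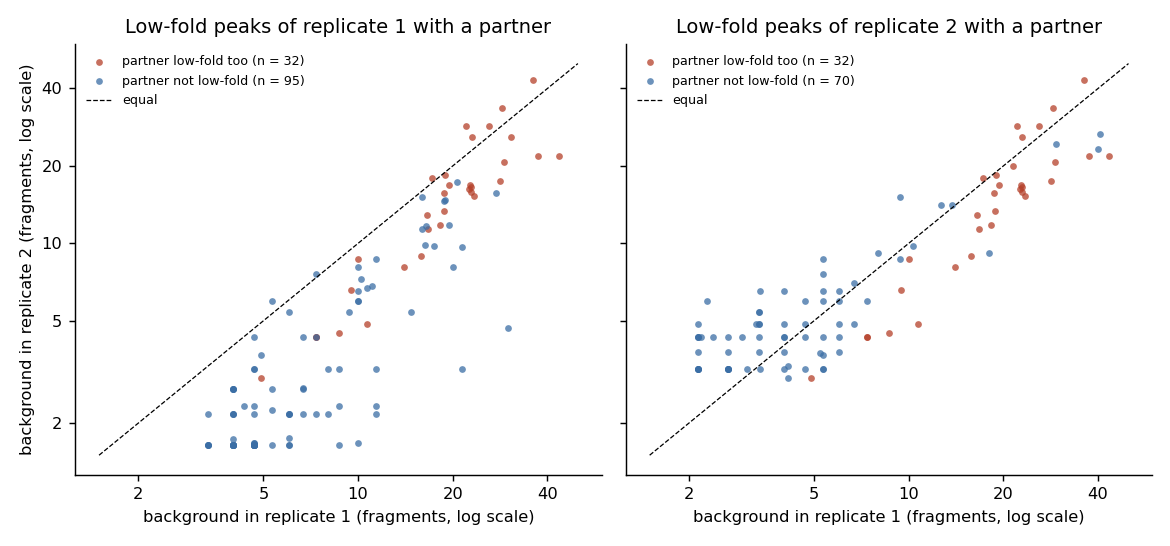
Local background of overlapping peaks, replicate 1 against replicate 2 (fragments, log scales), one panel for the low-fold peaks of each list; the partner is the overlapping peak and the dashed line marks equal backgrounds. Pairs that are low-fold in both lists sit mostly at high background, with Commd3 at 36.1 and 43.3 fragments and Gna11 at 37.4 and 21.9.

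Chromosome 15 held more low-fold peaks than its share of peaks in replicate 1. It carried 47 of 317 (14.8%, interval 11.1 to 19.2) of them, against 7.11% of all peaks and 12.1% (11.2 to 13.1) of other peaks of like background. In replicate 2 it carried 9 of 105 (8.57%, 3.99 to 15.6), against 6.76% of all peaks and 9.38% of other peaks of like background. Of the peaks on chromosome 15, 1.01% were low-fold in replicate 1 and 0.503% in replicate 2. The chromosome 15 peaks of replicate 1 were of the lower backgrounds, 20% and 17.4% of low-fold peaks in the lower ranges and 5.26% and 2.63% in the higher ones. The excess over the list did not hold at stricter limits, with 3.7% (2 of 54) on chromosome 15 at a fold below 4 and 0.0% (0 of 18, interval up to 18.5%) at a −log10 p of 20 or more. Along the chromosome in replicate 1, 14 of 1276 peaks (1.1%) were low-fold between 70 and 80 Mb and 10 of 1154 (0.867%) between 80 and 90 Mb. Both were near the share of the whole chromosome. Between 0 and 10 Mb it was 2 of 107 (1.87%), and between 10 and 20 Mb 3 of 103 (2.91%), so these shares rest on very few peaks. In replicate 2 the same 4 stretches held 3 of 450, 3 of 398, 0 of 56 and 0 of 43. A raised background was found for 34.1%, 35.4%, 80.4% and 76.7% of all replicate 1 peaks in these 4 stretches. On chromosome 2, replicate 2 held 14 low-fold peaks (13.3%), against 7.64% of all peaks, and replicate 1 held 22 (6.94%), against 7.96%.

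**Figure D5:**
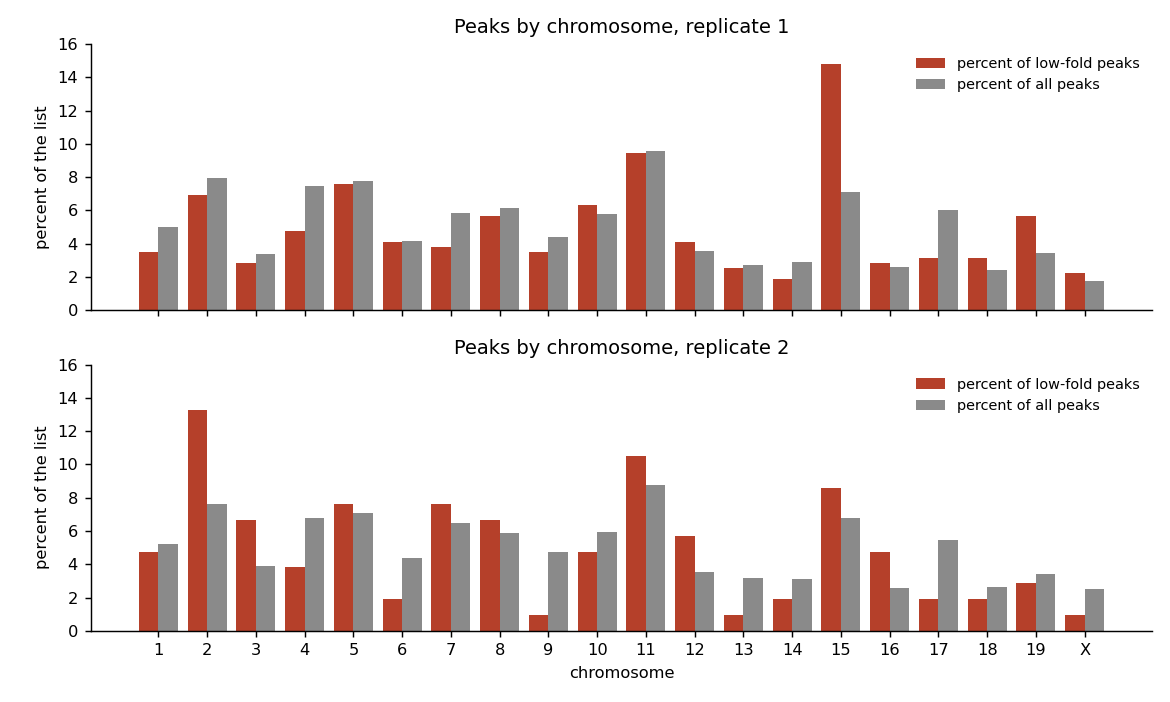
Share (percent) of low-fold peaks and of all peaks on each chromosome, by replicate. Chromosome 15 holds 14.8% of the low-fold peaks of replicate 1, against 7.11% of all its peaks.

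Few low-fold peaks lay near each other. Another low-fold peak of the same list lay within 10 kb of 24 peaks (7.57%, interval 4.91 to 11.1) in replicate 1 and of 6 (5.71%, 2.13 to 12) in replicate 2. The shares moved with the limits, to 21.4% (6 of 28) in replicate 2 at a fold below 4 and to 16.1% in replicate 1 at a gap of 100 kb, and the same was not computed for other sets of peaks of that size. Another peak of any kind lay within 1 kb of 115 (36.3%, 31.0 to 41.8) and 36 (34.3%, 25.3 to 44.2) low-fold peaks, against 29.5% and 24.2% of all peaks and 25.0% and 21.6% of other peaks of like background. For 95 (30.0%) and 29 (27.6%) low-fold peaks a peak of higher fold lay within 1 kb. The fold limit of the rule favours this, since the other peaks had median folds of 6.07 and 8.47. The same was not computed for other peaks, so it is a description only. Within 10 kb, 80.8% and 64.8% of low-fold peaks had another peak, against 77.3% and 57.2% of all peaks.

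Chained at gaps of up to 10 kb over both lists, the 422 peaks formed 372 blocks, of which 332 held 1 peak, 32 held 2 and 8 held 3 or 4. Blocks with low-fold peaks of both lists numbered 34, and they held 12.6% of the low-fold peaks of replicate 1 (40) and 35.2% of those of replicate 2 (37). The median background of low-fold peaks in these shared blocks was 18.4 and 15.8 fragments in replicates 1 and 2, against 4.35 and 4.33 in blocks of 1 list, and the median pileup was 70.5 and 59 fragments, against 24 and 24. Background and pileup follow from the fold and p of the rule, so these medians are a description only. Of the 34 shared blocks, 31 touched a coding gene and 4 were on chromosome 15.

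The blocks with most low-fold peaks lay at or near coding genes, apart from 1 on unplaced sequence. At Egr2, an immediate early zinc finger transcription factor on chromosome 10, replicate 1 had 3 low-fold peaks and replicate 2 had 1. The middle one, at chr10:67537551-67537736, had 72 fragments over 18.2 (fold 3.81) in replicate 1 and 53 over 11.8 (fold 4.23) in replicate 2. The outer ones of replicate 1 had 50 fragments over 10 and 25 over 4.95. The first of these overlapped a replicate 2 peak of fold 5.33, just past the limit, and the second had no overlapping peak.

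At Gsk3b, glycogen synthase kinase 3 beta on chromosome 16, both lists had a pair of low-fold peaks on both sides of the start. The upstream one had 78 fragments over 23.4 (fold 3.24) in replicate 1 and 57 over 15.3 (fold 3.57) in replicate 2, with summits 389 and 430 bp before the start. The downstream one had 74 over 29.2 (fold 2.49) and 66 over 20.8 (fold 3.08), with summits 621 and 636 bp after it. The start itself lay between the 2 peaks, and the pair had nearly the same places in both lists.

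At Sptan1, which encodes an alpha spectrin of the membrane skeleton, replicate 1 had 1 low-fold peak of 90 fragments over 22.1 (fold 3.94). Replicate 2 had 2, of 82 fragments over 28.7 and of 76 over 28.7, and the second had no overlapping peak in replicate 1. At Ano6, a membrane protein that scrambles phospholipids, summits 346 and 364 bp after the start were low-fold in replicates 1 and 2, with 74 fragments over 22.9 in replicate 1 and 53 over 15.8 in replicate 2. A second summit 50 bp before the start was low-fold in replicate 2 only, with 69 over 26.5, and its overlapping peak in replicate 1 had 80 fragments over 40.7, a fold of 1.94 and a −log10 p of 7.8. The tall replicate 1 summit there thus missed the rule by its p.

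At Ptbp2, replicate 1 had low-fold peaks of 72 fragments over 23.0 and 85 over 30.7, and the single replicate 2 peak of 79 fragments over 26.0 covered both. On chromosome 8, Pik3r2, a regulatory subunit of phosphoinositide 3-kinase, had a peak of 44 fragments over 10.2 in replicate 1. The neighbouring kinase gene Mast3 had 50 over 9.46 in replicate 1 and 33 over 6.58 in replicate 2. On chromosome 19, replicate 1 had 3 low-fold peaks within 10728 bp, the longest block of all. They lay at the ends of Mrpl49 and Fau (a mitochondrial and a cytosolic ribosomal protein gene), of Znhit2, and of Tm7sf2 and Vps51, with 49 fragments over 16, 69 over 16.3 and 24 over 4.67. All 3 had an overlapping peak in replicate 2, with folds of 2.6, 5.81 and 2.82, and none of these was low-fold by the rule.

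At several genes 1 low-fold peak was found in each list, at some of them with close pileups. Zhx3, a zinc finger and homeobox repressor, with a peak at chr2:160872384-160872935 (mm10, as all coordinates of peaks here), had the smallest p among the low-fold peaks of replicate 1, with 85 fragments over 17.2 (fold 4.73, −log10 p 31.5), and 77 over 17.9 (fold 4.13, −log10 p 25.0) in replicate 2. Gna11 had the smallest p among the low-fold peaks of replicate 2, with 96 fragments over 21.9 (fold 4.23, −log10 p 31.3), whereas replicate 1 had 88 over 37.4, a fold of 2.32 and a −log10 p of 12.2. At this gene the pileups were close and the backgrounds were not. Fam102a had 77 fragments over 19.4 (fold 3.83) in replicate 1 and 75 over 16.8 (fold 4.27) in replicate 2, with summits 22 and 21 bp after the start in the promoter printed above.

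Foxk1, a forkhead factor expressed in myogenic progenitors, had 72 fragments over 18.7 (fold 3.71) in replicate 1 and 70 over 15.7 (fold 4.25) in replicate 2. A second low-fold peak deep inside Foxk1, of 26 fragments over 4.67, was found in replicate 1 only, over a replicate 2 peak of fold 5.69. Crebbp, the histone acetyltransferase and coactivator CBP, had 97 fragments over 28.7 in replicate 1 and 86 over 33.6 in replicate 2, and Creb1, a factor that recruits it, had 75 over 28.3 and 59 over 17.4. Commd3 had the highest background among the low-fold peaks of replicate 2, with 96 fragments over 36.1 (fold 2.62) in replicate 1 and 96 over 43.3 (fold 2.19) in replicate 2.

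Both lists had a low-fold summit at the same end of 27 of 21631 coding genes. That end was the annotated start for 22 of them and the finish for none, and the strand of 5 was not given in the promoter table. Most gene-end peaks of any kind lay near a start. Within 1 kb of one lay 73.1% and 80% of low-fold peaks at gene ends in replicates 1 and 2. For other peaks at gene ends the shares were 61.5% and 70.9%. The 27 genes are not all separate places. Eif2b1 and Gtf2h3, St13 and Xpnpep3, Mboat7 and Tsen34, and Ate1 and Gm4275 each shared the same peaks. Besides the genes above, the 27 included Wac, Ubl3 (a ubiquitin-like protein), Arglu1, Tsc22d1 (a transcriptional regulator), Prpf19 (a splicing factor), Ino80 and Smarca5 (ATPases of chromatin remodelling complexes), Eif2b1 and Gtf2h3. The rest were St13, Xpnpep3, Mboat7, Tsen34, Ate1, Gm4275, Tbc1d9b and 1110038F14Rik. Of these, Tsc22d1 had 68 fragments over 18.9 in replicate 1 and 65 over 18.4 in replicate 2. Ubl3 had 71 over 22.7 and 69 over 16.8, and Arglu1 72 over 22.6 and 66 over 16.3. The values were lower at Smarca5, with 32 over 7.35 in replicate 1 and 24 over 4.33 in replicate 2.

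Several of the low-fold peaks with the smallest p in replicate 1 overlapped a replicate 2 peak with a fold of 5 or more. At Hipk2, a nuclear protein kinase gene, with Tbxas1 also within 1 kb of the peak, replicate 1 had 92 fragments over 20.7 (fold 4.29) and replicate 2 had 99 over 17.3 (fold 5.46). At Nudt9, an ADP-ribose hydrolase gene, replicate 1 had 80 over 17.4 (fold 4.41) and replicate 2 had 78 over 9.75 (fold 7.35). At Tmed8 and Samd15, replicate 1 had 77 over 16.4 (fold 4.47) and replicate 2 had 63 over 11.7 (fold 5.05). The small GTPase gene Rac1 had folds of 4.05 and 5.84, and the deubiquitinase gene Usp34 had 3.8 and 6.65, in replicates 1 and 2. In these 5 places both pileups were 63 fragments or more, and the background was lower in replicate 2. They were grouped by a fold below 5 in replicate 1 and of 5 or more in replicate 2, which largely fixes that difference. The lowest background of the whole list was also lower in replicate 2, at 1.64 against 2.13 fragments.

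The reverse was seen at Usp10, another deubiquitinase gene, with 67 fragments over 14.1 (fold 4.51) in replicate 2 and 74 over 13.7 (fold 5.1) in replicate 1. At Brsk2, a kinase gene, replicate 2 had 48 over 9.21 (fold 4.8) and replicate 1 had 39 over 18.0 (fold 2.1, −log10 p 5.3). Inside Dab2ip, a Ras GTPase activating protein gene, a low-fold peak of replicate 1 with 81 fragments over 21.4 overlapped a low-fold peak of replicate 2 with 59 over 20, far from either gene end. The replicate 2 peak of smallest p that overlapped it was another one and not low-fold, with 31 fragments over 3.25 (fold 7.53). A shared low-fold peak outside coding genes lay at chr15:98993140-98993315 in replicate 2, with 46 fragments over 8.66 and with 50 over 10 in replicate 1, and the nearest coding gene end, of Tuba1c, was 36659 bp away.

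Low-fold peaks touched 283 coding genes in replicate 1 and 104 in replicate 2 within the gene span plus 1 kb, which is 1.31% and 0.481% of 21631 coding genes. In both lists were 34 genes (0.157% of all), 12% of the genes of replicate 1 and 32.7% of those of replicate 2. The 353 genes of either list had a median length of 26135 bp, against 17329 bp for all coding genes, and longer genes offer more room for a peak.

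Of 9 gene lists, 4 had a gene with a low-fold peak, each with 1 or 2 genes. Over all coding genes the shares with a low-fold peak were 1.31% in replicate 1 and 0.481% in replicate 2. With shares that small, lists of this size show little by holding few such genes or none. Of 26 cytoskeleton genes, Plec, a linker of intermediate filaments, had a peak of 26 fragments over 5.34 in replicate 1, and Myh9, the heavy chain of nonmuscle myosin IIA, had 24 over 4.33 in replicate 2. The Myh9 peak overlapped a replicate 1 peak of 98 fragments over 5.34 with a fold of 15.61. Of 36 sarcomere genes, Actn3, a fast fibre alpha actinin, had 23 over 4.01 in replicate 1, at a place shared with Zdhhc24. Of 44 ribosomal protein genes, Rpl19 had 25 over 4.67 in replicate 1. The lists are partial, and genes outside them, chosen after their values were seen, also had low-fold peaks. Among ribosomal protein genes these were Rpl37, with 33 fragments over 5.99, Rps21, with 27 over 4.9, and Fau (above), all in replicate 1. Of 21 genes in a list of immediate early genes with Myc, a growth-promoting transcription factor, Egr2 had low-fold peaks in both lists and Myc had 26 over 4.67 in replicate 1, where replicate 2 had 12 over 1.66. None of the matched genes had one in the other lists, of 26 collagen and matrix genes, 22 myogenic regulators, 36 autophagy and mTORC1 genes, 14 nuclear RNA genes and small RNA hosts, and 8 loci known for multiple copies or high signal. Outside the autophagy and mTORC1 list, Vmp1, an autophagy gene, had 45 fragments over 12 in replicate 1, at a place shared with Ptrh2. Lamtor3, a subunit of the Ragulator complex that anchors mTORC1 at the lysosome, had 33 over 5.96 in replicate 2.

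A few low-fold peaks were not on assembled chromosomes. On the unplaced sequence Un_JH584304, 4 of 5 peaks of replicate 1 and 1 of 4 of replicate 2 were low-fold, and all of the peaks there stood on backgrounds of 4.08 to 43.4 and 16.2 to 23.3 fragments. The tallest of them was the tallest low-fold peak of replicate 1, with 103 fragments over 43.4 (fold 2.34), and it overlapped the low-fold peak of replicate 2 with 69 over 21.8 (fold 3.07). In the mitochondrial genome 1 of 3 replicate 2 peaks was low-fold, with 74 fragments over 28.2 (fold 2.57).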

How the data were processed

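ChIP-seq of Deaf1 was deposited as a peak list per replicate. BWA, MACS2 and the build mm10 are named per the submitters' processing notes, and their versions, settings and control are not stated there. The authors' lists hold the fold ratio and the −log10 p and q of each summit, and a display score. Whole-number pileups and backgrounds were solved from the deposited fold, (pileup + 1)/(background + 1), and a Poisson tail (largest misfit in −log10 p 4.07e-05 and 3.87e-05), tested on simulated data. The members and gene lists were chosen with earlier results of these data known. Genes are RefSeq coding spans (GRCm38.p6). Gene ends were used because the gene table holds no strand, and transcription starts were tried as an added alternative. Named are the blocks and genes with most low-fold peaks, the smallest p of each list, genes with both lists at 1 end, and listed genes. Matches of TTCG include overlapping ones. Tools were Python 3.11.15, pandas 2.3.3 and SciPy 1.17.1. Other limits, windows, gaps, overlaps and single lists were tried.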

Additional observations from a re-analysis of the deposited data

How the results depend on the processing

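Of 49 alternatives, 24 kept the value within its interval or within 1.5 times a count, and 25 moved it. Counts and shares have no sign, so a reversal was not assessed. The share on chromosome 15 in replicate 1 fell below that of all peaks (7.11%) under both stricter limits. With a fold below 4, there were 54 and 28 low-fold peaks in replicates 1 and 2, with 75.9% at gene ends and 3.7% on chromosome 15 in replicate 1, 77.8% and 89.3% with an overlapping peak, 11.1% and 21.4% with another within 10 kb, and 16 shared blocks. With a −log10 p of 20 or more, there were 18 and 8, with 72.2% and 100% at gene ends, 100% and 100% with an overlapping peak, 0.0% and 0.0% with another within 10 kb, 0.0% and 0.0% on chromosome 15 (intervals up to 18.5% and 36.9%), and 4 shared blocks. A window of 5 kb gave 61.5% and 89.5% at gene ends, and gaps of 1 and 100 kb gave 1.89% and 16.1% for clustering in replicate 1. Single lists gave 104 to 283 genes. The share on chromosome 15 has no value without that chromosome. The cause was not tested, beyond the smaller number of peaks under stricter limits. No paired analysis was possible because the inputs have no peak list here and no result comes from a test. Depth is unknown, and the lists differ in length.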
